A study of Arabidopsis thaliana with 15 samples.

Results

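The 7 genes described here are the ethylene response factors ERF3 (AT1G50640), ERF4 (AT3G15210), ERF7 (AT3G20310), ERF8 (AT1G53170), ERF9 (AT5G44210), ERF11 (AT1G28370) and ERF12 (AT1G28360) of Arabidopsis thaliana. They were chosen by gene identifier as transcriptional repressors that carry an EAR motif, and all 7 were found among the 14190 genes of the count table. Transcripts of wild-type Col-0 seedlings, 2 weeks old and taken whole, were counted by bulk MARS-seq, a method that reads the 3' ends of polyadenylated RNA. The 15 libraries formed 5 groups of 3: an untreated control and 4 cercosporin doses of 0.1, 1, 10 and 100 µM. Cercosporin, made by Cercospora fungi, is a photosensitizer that forms singlet oxygen when lit, and the doses ask what the seedlings' transcripts do as the toxin increases. All seedlings grew on half-strength MS medium with sucrose and were equilibrated in water. Treated seedlings stood in the toxin for 1 h in the dark, were washed 3 times and then received light of 30 µE for 30 min, whereas the control plates remained in light. The toxin, the dark step and the washes therefore cannot be told apart in a comparison with the controls, while all 4 doses had the same light schedule. The labels do not say whether replicates were separate cultures, so each p-value reflects the spread between these libraries, which could be technical.

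ERF proteins bind the GCC box, a short element in the promoters of many ethylene, jasmonate and defence genes. Most family members activate transcription. The proteins described here instead carry the EAR motif near their C-terminal end, which recruits co-repressors of the TOPLESS and SAP18 types together with histone deacetylases and so lowers expression of the bound gene. ERF4 restrains jasmonate and ethylene responsive defence genes and takes part in abscisic acid signalling and leaf senescence. Its transcript is also known for alternative polyadenylation, which gives a second protein without the EAR motif; the counts used here are per gene and do not separate the isoforms.

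The bases that encode the EAR motif are shown because the motif is what groups these genes as repressors. They were read from the RefSeq coding sequences of assembly TAIR10.1, in which 7 of 7 genes were matched by locus tag. Each line runs 5′ to 3′; capitals mark the 6 codons of the DLNxxP form of the motif and lower case the 3 codons on either side.
ERF3: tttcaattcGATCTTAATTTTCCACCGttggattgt
ERF4: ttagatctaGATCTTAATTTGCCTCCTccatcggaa
ERF7: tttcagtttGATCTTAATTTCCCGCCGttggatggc
ERF8: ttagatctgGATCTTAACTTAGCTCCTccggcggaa
ERF9: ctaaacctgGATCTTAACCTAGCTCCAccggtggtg
ERF11: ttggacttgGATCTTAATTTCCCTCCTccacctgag
ERF12: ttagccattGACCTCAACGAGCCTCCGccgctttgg

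Of the 18 motif bases of ERF4, ERF11 shared 17, ERF3, ERF7 and ERF8 shared 15 each, ERF9 shared 13 and ERF12 shared 12. The motif lies at codons 212 to 217 of 222 in ERF4, which leaves 5 codons after it. In ERF8, ERF9, ERF11 and ERF12 between 3 and 5 codons follow the motif, whereas 20 follow it in ERF3 and 21 in ERF7. ERF12 holds the same form a second time, at codons 74 to 79. The LxLxL form of the motif overlaps DLNxxP codons near the end in ERF4, ERF8, ERF9 and ERF11 and those of the earlier copy in ERF12, and was not found in ERF3 or ERF7.

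**Figure D1:**
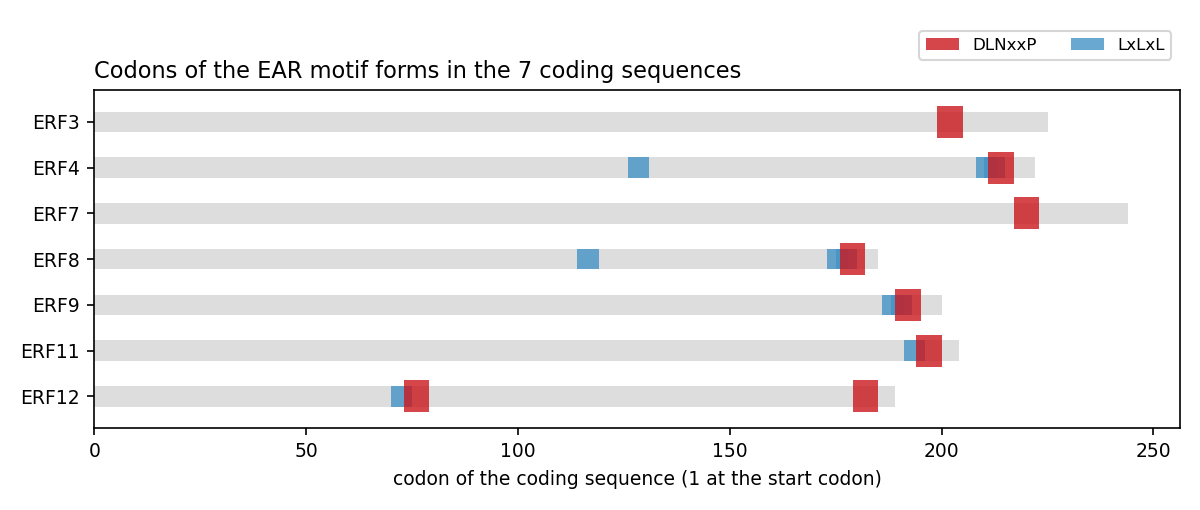
Position of EAR motif codons (x axis: codon number, 1 at the start codon) in the coding sequences of the 7 repressors (grey bars, one per gene). The DLNxxP form (red) lies near the end in every gene, with 20 codons after it in ERF3 and 21 in ERF7, and ERF12 has a second copy at codons 74 to 79; the LxLxL form is in blue.

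Library totals lay between 834190 counts (1 µM replicate 2) and 4554702 counts (10 µM replicate 3). On the leading principal component, which held 51% of the variance, the 100 µM libraries were at 74.4 to 104.9 and the other 12 at -32.4 to -13.7. Chloroplast-encoded transcripts took 0.221% ± 0.0234 of counts at 100 µM and 0.468% ± 0.0203 in controls, and mitochondrial ones 0.356% ± 0.0709 at 100 µM and 1.02% ± 0.15 in controls (SD, n = 3 each). The exact permutation test gave a two-sided p of 0.1 for both shares, the smallest that 3 against 3 libraries allow, and 0.267 after adjustment over 8 comparisons. The 6 shoot markers summed to 20720 to 32989 CPM (counts scaled to the adjusted total of each library) at 100 µM and to 29845 to 45000 CPM in controls, a sum that the most abundant genes set; 3 of the 6 were called higher at 100 µM and 1 lower, with a median log2 change of 0.13. Of 8 root markers 7 were in the table, none at 0 in any group, and they summed to 151 to 271 CPM at 100 µM and to 123 to 174 CPM in controls; 3 of the 6 tested were called higher and none lower. The part of tissue makeup or RNA quality in the results below was not tested, and in whole seedlings fewer cells of a type cannot be told apart from less RNA per cell.

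ERF4 was the member with the clearest differences between groups, and its group means did not follow the order of the doses. In controls it was counted at 418.1, 495.4 and 464.9 CPM. At 0.1 µM it was at 380.3, 420.8 and 374.5 CPM, and at 1 µM at 338.0, 322.3 and 318.0 CPM. The 3 libraries at 1 µM lay below every library at 0.1 µM and every control. At 10 µM ERF4 was at 477.5, 500.5 and 550.1 CPM, overlapping the controls and above every library of the other doses. At 100 µM it was at 310.2, 331.0 and 279.4 CPM, overlapping 1 µM and below the rest. From highest to lowest, the group means were 509 ± 37.1 CPM at 10 µM, 459 ± 38.9 CPM in controls, 392 ± 25.2 CPM at 0.1 µM, 326 ± 10.5 CPM at 1 µM and 307 ± 26.0 CPM at 100 µM (SD, n = 3 each). No neighbouring pair in that order passed the edgeR test described next.

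**Figure D2:**
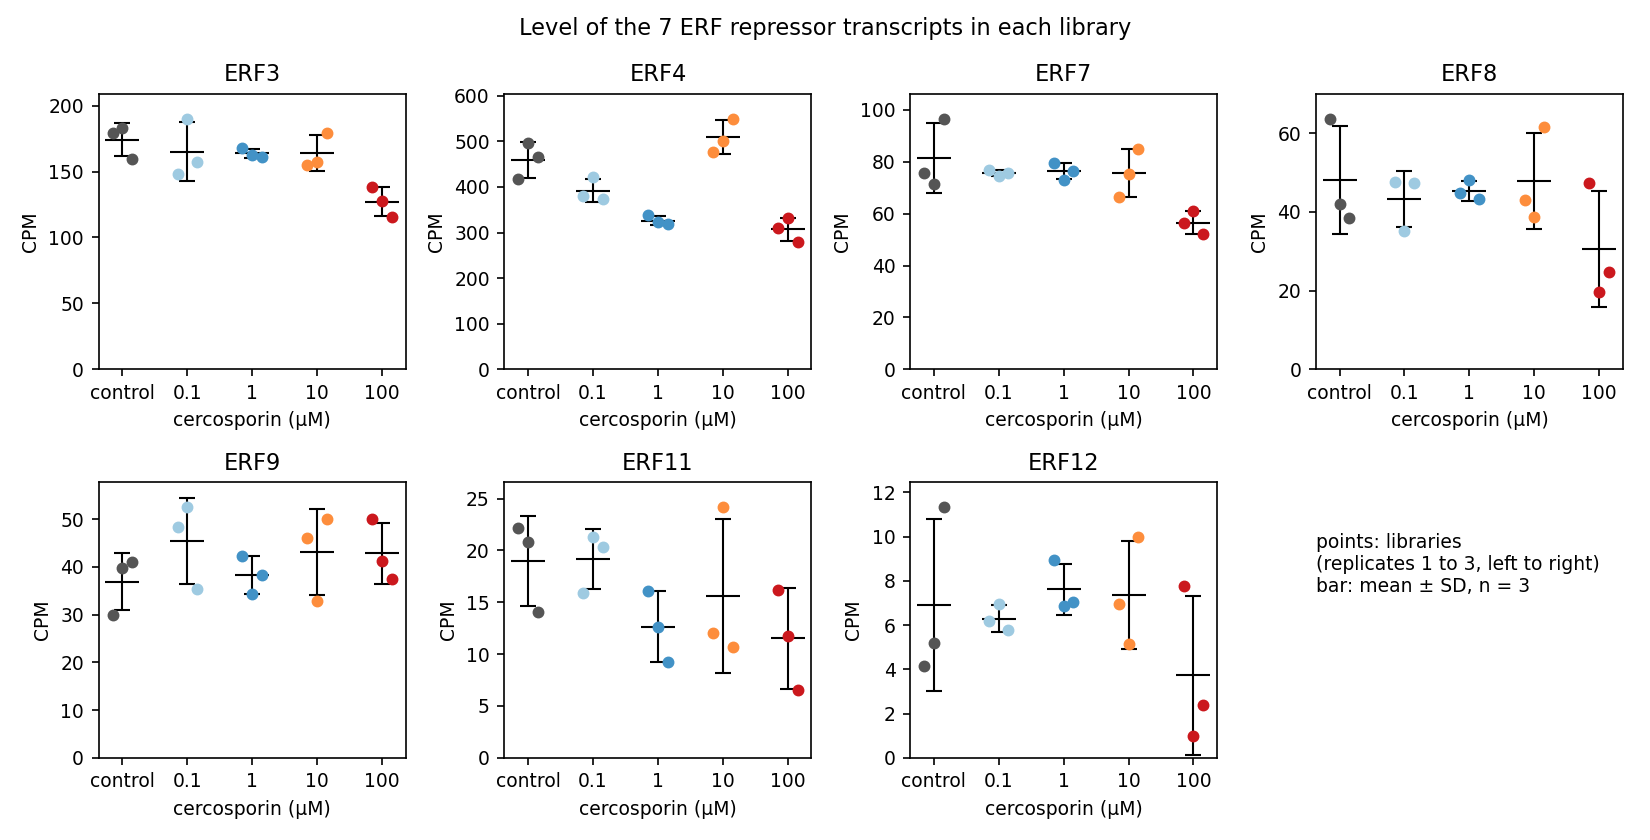
Level of each repressor transcript (y axis: CPM, from 0) in the 5 groups (x axis: control, then cercosporin in µM); points are libraries and bars the mean ± SD of 3. ERF4 is lower at 1 and 100 µM than at 10 µM with no overlap, ERF3 and ERF7 are lowest at 100 µM, and ERF12 has under 12 CPM in all libraries.

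Differences were tested with edgeR's quasi-likelihood test over 10374 genes, with Benjamini-Hochberg adjustment and a threshold of 0.05. ERF4 fell at 100 µM against the controls, with a log2 change of -0.58 ± 0.13 (SE, adjusted p = 0.00201), and was lower in 3 of 3 libraries. At 1 µM against the controls its log2 change was -0.49 ± 0.13, with a 95% interval of -0.77 to -0.22, and all 3 libraries were below the controls, as for 7.23% of all genes. This had an unadjusted p of 0.00127 and an adjusted p of 0.185 in edgeR, and so did not pass. With DESeq2 on the same counts the adjusted p was 0.0191. Of all genes DESeq2 called 0.864% in this comparison and edgeR 0.183%. At 0.1 µM the log2 change against the controls was -0.23 ± 0.13 (edgeR adjusted p = 0.920) and at 10 µM it was 0.15 ± 0.13 (edgeR adjusted p = 0.973). The joint test of the 4 doses against the controls passed for ERF4 (edgeR adjusted p = 0.00063) and for no other member; 31.4% of all genes passed it.

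Between doses ERF4 rose at 10 µM relative to 1 µM by 0.64 ± 0.13 on the log2 scale (edgeR adjusted p = 0.0212, 95% interval 0.37 to 0.92), where 0.887% of all genes passed, 0.569% as higher. All 3 libraries at 10 µM lay above those at 1 µM, as for 10.5% of all genes. The root markers summed to 91.8 to 134 CPM at 10 µM and to 166 to 238 CPM at 1 µM, without overlap, with a median log2 change of -0.87 and TIP2;3 called lower; of the shoot markers LHCB2.2 was called lower. Their part in the ERF4 difference was not tested. ERF4 then fell at 100 µM relative to 10 µM, with a log2 change of -0.73 ± 0.13 (edgeR adjusted p = 0.00022), and relative to 0.1 µM, with -0.35 ± 0.13 (edgeR adjusted p = 0.0398). At 100 µM relative to 1 µM the log2 change was -0.09 ± 0.13, with a 95% interval of -0.36 to 0.18. ERF4 at 10 µM lay above 0.1 µM in 3 of 3 libraries, as did 7.27% of all genes, without passing the test (log2 change 0.38 ± 0.13, edgeR adjusted p = 0.453). At 1 µM it lay below 0.1 µM in 3 of 3 libraries, as did 9.27% of all genes, also without passing (-0.27 ± 0.13, edgeR adjusted p = 0.741). The sample codes contain a digit that is 8 for all 10 µM libraries and control replicate 2, 7 for the 0.1 and 1 µM libraries and the remaining controls, and 1 at 100 µM. Within digit 8, ERF4 was at 477.5 to 550.1 CPM in the 10 µM libraries and 495.4 CPM in the 1 control; within digit 7 it was at 318.0 to 338.0 CPM at 1 µM and at 418.1 and 464.9 CPM in the 2 controls. With the digit as a term in the fit, the difference between 10 and 1 µM was 0.48 and no longer passed (edgeR adjusted p = 0.534). Only the control group holds both 7 and 8, so the term is set by 1 control library against 2. With it 0.00964% of all genes passed in this comparison, against 0.887% without it. The loss of the call therefore cannot separate digit from dose for ERF4. What the digit stands for is not given, and at 100 µM digit and dose cannot be told apart.

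The call between 10 and 1 µM was also lost when some single libraries were left out, with log2 differences of 0.56 to 0.68 in those fits. The edgeR adjusted p was 0.0709, 0.118 and 0.137 without replicates 1, 2 and 3 of 1 µM, and 0.0514 and 0.182 without replicates 2 and 3 of 10 µM. The fall of ERF4 at 100 µM against the controls passed in all 23 alternatives that could be fitted, with log2 changes of -0.69 to -0.52. Its fall against 0.1 µM did not pass with RLE factors (0.0752), upper quartile factors (0.087), only the compared groups in the fit (0.0826) or counts thinned to the smallest library (0.292), nor without replicate 1 (0.0595) or 2 (0.0991) of 0.1 µM or replicate 3 of 100 µM (0.137), all as edgeR adjusted p.

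ERF3 and ERF7 fell at 100 µM and did not pass the test at any lower dose. ERF3 is a repressor of GCC box genes. It was at 138.2, 127.7 and 115.8 CPM at 100 µM, against 179.5, 182.8 and 159.8 CPM in controls. Every 100 µM library was below every control, with a log2 change of -0.45 ± 0.15 (SE, edgeR adjusted p = 0.0236). The means of ERF3 were 165 ± 22.2 CPM at 0.1 µM, 164 ± 3.59 CPM at 1 µM and 164 ± 13.4 CPM at 10 µM, against 174 ± 12.4 CPM in controls (SD, n = 3 each). The 0.1 µM libraries ran from 148.0 to 190.1 CPM and spanned the control range. ERF7, which acts with a SIN3-type co-repressor and is a substrate of the kinase CIPK15 in abscisic acid responses, was at 56.5, 60.9 and 52.2 CPM at 100 µM, against 75.7, 71.5 and 96.6 CPM in controls. Its log2 change was -0.53 ± 0.16 (edgeR adjusted p = 0.0181), again with no overlap between the groups. At 0.1, 1 and 10 µM the means of ERF7 were 75.7 ± 1.18, 76.3 ± 3.14 and 75.5 ± 9.26 CPM (SD, n = 3 each). ERF7 also fell at 100 µM relative to 0.1 µM (-0.43 ± 0.16, edgeR adjusted p = 0.0464) and relative to 10 µM (-0.43 ± 0.16, edgeR adjusted p = 0.0423). For ERF3 the adjusted p against 0.1, 1 and 10 µM was 0.0519, 0.0694 and 0.0537 in edgeR, so these 3 did not pass. They lay close to the threshold, and of the 23 alternatives 12, 5 and 12 gave a call. ERF7 against 1 µM, at -0.44 and not called, passed in 10 of the 23. The calls of ERF3 and ERF7 against the controls are closer to the threshold than that of ERF4: without 100 µM replicate 3 the edgeR adjusted p was 0.0842 for ERF3 and 0.0663 for ERF7, without control replicate 2 it was 0.0542 for ERF3, and without control replicate 3 it was 0.0943 for ERF7. With only the compared groups in the fit neither passed (0.0685 for ERF3 and 0.0789 for ERF7), with upper quartile factors ERF3 did not (0.0516), and with thinned counts ERF7 did not (0.258). The calls of ERF7 against 0.1 and 10 µM were lost with RLE factors (0.0722 and 0.0631), upper quartile factors (0.0872 and 0.0798), DESeq2 (0.071 and 0.0567), only the compared groups in the fit (0.0715 and 0.106) and thinned counts (0.111 and 0.332, the change against 10 µM then being -0.29), and both were lost without 100 µM replicate 3 (0.141 and 0.122). The call against 0.1 µM was also lost without 100 µM replicate 1 (0.0577) and without replicates 1, 2 and 3 of 0.1 µM (0.0953, 0.0638 and 0.0794), and that against 10 µM without replicates 2 and 3 of 10 µM (0.067 and 0.152).

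ERF8, ERF11 and ERF12 had lower means at 100 µM without passing the test, and in each of them the 100 µM libraries were uneven. ERF8, which has been described with ERF4 in leaf senescence, was at 47.4, 19.6 and 24.7 CPM at 100 µM, against 63.7, 42.1 and 38.3 CPM in controls. Replicate 1 lay inside the control range and replicates 2 and 3 below it. The log2 change was -0.65 ± 0.29 (SE, edgeR adjusted p = 0.094, 95% interval -1.25 to -0.04). ERF11, which represses the ethylene synthesis genes ACS2 and ACS5, was at 16.2, 11.8 and 6.53 CPM at 100 µM, against 22.2, 20.8 and 14.0 CPM in controls. The groups overlapped, and the log2 change was -0.79 ± 0.38 (edgeR adjusted p = 0.126, 95% interval -1.60 to 0.02). ERF12, described in seed dormancy as a repressor of DOG1, was at 7.79, 0.982 and 2.41 CPM at 100 µM, against 4.15, 5.19 and 11.3 CPM in controls. It had 1 to 45 counts per library, and its interval of -1.99 to 0.28 was the widest of the 7. Without 100 µM replicate 1, all 3 passed: the log2 change was then -1.10 for ERF8, -1.21 for ERF11 and -1.78 for ERF12.

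None of these 3 genes passed the test at a lower dose. ERF8 averaged 43.3 ± 7.07 CPM at 0.1 µM, 45.3 ± 2.47 CPM at 1 µM and 47.8 ± 12.2 CPM at 10 µM, against 48.0 ± 13.7 CPM in controls. ERF11 averaged 19.2 ± 2.89, 12.7 ± 3.43 and 15.6 ± 7.45 CPM at those doses, against 19.0 ± 4.34 CPM in controls. Its log2 change of -0.62 ± 0.38 at 1 µM did not pass (edgeR adjusted p = 0.851); of its 3 libraries there, 12.6 and 9.27 CPM lay below the lowest control and 16.1 CPM did not. At 10 µM its libraries were at 12.0, 24.2 and 10.6 CPM, and 2 of them lay below the lowest control. ERF12 averaged 6.29 ± 0.607, 7.62 ± 1.17 and 7.36 ± 2.44 CPM, against 6.89 ± 3.88 CPM in controls (SD, n = 3 each).

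ERF9 was the single member whose estimate at 100 µM was not lower than in controls. This repressor of jasmonate-responsive defence genes such as PDF1.2 was at 50.0, 41.3 and 37.5 CPM at 100 µM, against 30.0, 39.8 and 41.0 CPM in controls. The libraries overlapped, and the log2 change of 0.21 ± 0.22 did not pass (edgeR adjusted p = 0.498, 95% interval -0.25 to 0.68). At 100 µM relative to 0.1, 1 and 10 µM the log2 changes of ERF9 were -0.09 ± 0.21, 0.14 ± 0.22 and -0.01 ± 0.22, none of which passed. Its means were 45.4 ± 8.99 CPM at 0.1 µM, 38.3 ± 4.06 CPM at 1 µM and 43.1 ± 8.99 CPM at 10 µM (SD, n = 3 each).

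Counted over the set, 3 of 7 members were called at 100 µM against the controls, all of them lower, and 32.7% of all genes were called in this comparison, 14.6% as lower. Without 100 µM replicate 1 the count was 6, with 32.8% of all genes called, and without 100 µM replicate 3 it was 1, with 31% called. The 3 called members lay below the controls in every library, as did 19.6% of all genes. The median log2 change was -0.58 over the members and -0.02 over all genes tested. At 0.1 µM none of the 7 was called by edgeR, DESeq2 or limma-voom and none had an unadjusted p under 0.05. The background in edgeR was 0% called and 5.52% under that unadjusted p, and DESeq2 called 0.0503% of genes. At 1 µM edgeR called none (background 0.183%), and ERF4 alone had an unadjusted p under 0.05, as did 6.38% of all genes. DESeq2 called ERF4, with a background of 0.864% in DESeq2. At 10 µM none was called by edgeR or DESeq2 or had an unadjusted p under 0.05. The background in edgeR was 0.00964% called and 5.4% under that unadjusted p, and DESeq2 called 0.0386% of genes. These 4 comparisons share their control libraries.

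**Figure D3:**
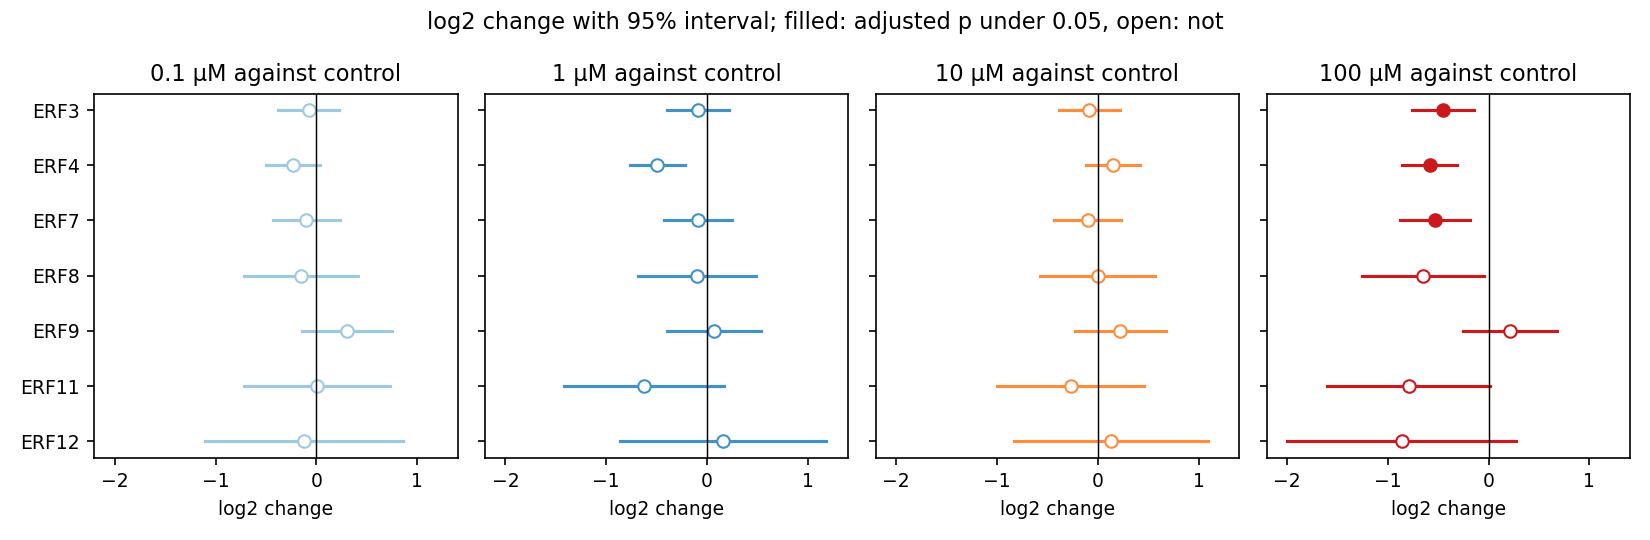
Log2 change of each repressor (rows) at the 4 doses against the controls, with 95% intervals from edgeR; filled points passed an adjusted p of 0.05. Filled points appear at 100 µM alone, for ERF3, ERF4 and ERF7, while the interval of ERF4 at 1 µM runs from -0.77 to -0.22.

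Set against the mean of the 3 lower doses, 100 µM gave the same 3 calls: ERF3 fell by 0.37 ± 0.12, ERF4 by 0.39 ± 0.11 and ERF7 by 0.44 ± 0.14 on the log2 scale (edgeR adjusted p = 0.0206, 0.00693 and 0.0158). Of all genes 42.3% were called in this comparison, 19.2% as lower. With thinned counts ERF4 (0.0766) and ERF7 (0.0785) did not pass here, and without 100 µM replicate 3 ERF3 (0.0992) and ERF7 (0.0787) did not, which left 1 call. Without 100 µM replicate 1 there were 5. Of all genes 36.8% were called with thinned counts, 38.4% without replicate 3 and 40.6% without replicate 1. ERF8, at -0.56 ± 0.24, did not pass (edgeR adjusted p = 0.0698). Over the 6 pairs of doses, 5 of 42 member tests passed: 3 for ERF4 and 2 for ERF7. The number was 14 without replicate 1 and 2 without replicate 3 of 100 µM, 8 without replicate 1 and 3 without replicate 2 of 10 µM, and 9, 8 and 8 without control replicates 1, 2 and 3. The backgrounds were 35.6% for 100 against 0.1 µM, 29.9% for 100 against 1 µM, 38.1% for 100 against 10 µM, 0.106% for 10 against 0.1 µM and 0% for 1 against 0.1 µM. For 100 against 0.1, 1 and 10 µM they were 35.9%, 30.8% and 38.3% without 100 µM replicate 1. Without 100 µM replicate 3 they were 33.3%, 28.2% and 36.1%. Leaving out 10 µM replicate 1 gave 36.3%, 29.9% and 34.1%, and leaving out 10 µM replicate 2 gave 36.3%, 30.4% and 35.2%. Leaving out control replicate 1 gave 36.7%, 30.6% and 39.4%. For control replicate 2 the shares were 37%, 30.6% and 39.4%, and for control replicate 3 they were 35.6%, 29.1% and 38.2%. Across the 12 treated libraries no member passed the test for a linear change with log10 dose, in edgeR or DESeq2. Of 10666 genes 13% passed in edgeR and 17.8% in DESeq2. In edgeR 1 member had an unadjusted p under 0.05, as did 30.1% of the genes. The slope of ERF4 was -0.04 ± 0.08 log2 units per 10-fold dose, and those of ERF3 and ERF7 were -0.12 ± 0.06 and -0.13 ± 0.06.

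The ratio of ERF4 to ERF3 counts within a library does not depend on library scaling; it was computed after the values had been seen. It was 2.33, 2.71 and 2.91 in controls, 2.57, 2.21 and 2.38 at 0.1 µM, 2.01, 1.99 and 1.97 at 1 µM, 3.08, 3.18 and 3.07 at 10 µM and 2.24, 2.59 and 2.41 at 100 µM. Every 10 µM library lay above all others and every 1 µM library below all others. The log2 difference between 10 and 1 µM was 0.64, with an exact permutation p of 0.1 (two-sided, the smallest possible for 3 against 3) and 0.143 after adjustment over 10 pairs of groups. At 100 µM, where both genes were lower than in controls, the ratios overlapped those of the controls.

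**Figure D4:**
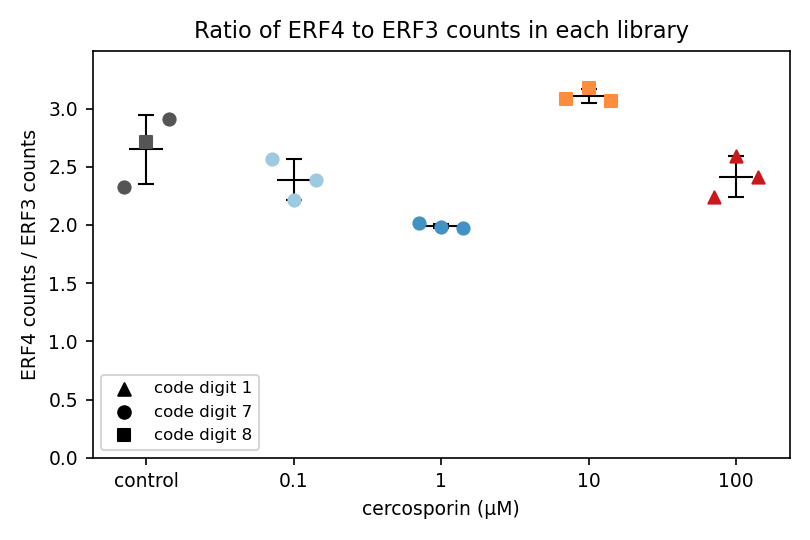
Ratio of ERF4 to ERF3 counts in each library (y axis, from 0) by group (x axis: control, then cercosporin in µM); bars are the mean ± SD of 3 and the marker shape gives the digit of the sample code. The 10 µM libraries are at 3.07 to 3.18 and the 1 µM libraries at 1.97 to 2.01.

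The genes whose log2 CPM was most like that of ERF4 were sought over the 12 libraries other than 100 µM. The 5 with the highest Pearson r were AT5G05600 (0.94), UCP5 (0.93), AT3G52470 (0.93), ABR1 (0.92) and GSTU7 (0.92), against a 95th percentile of 0.62 over 10367 genes. The libraries share their preparation, and r is a description. By Spearman rho the same genes ranked 12, 12, 4, 12 and 8.5 (ties averaged), so the choice of 5 depends on the measure. UCP5 encodes a mitochondrial dicarboxylate carrier, ABR1 an ERF family factor of abscisic acid responses and GSTU7 a tau-class glutathione transferase. At 100 µM, which did not enter the ranking, the mean of AT5G05600 was above that of the controls and the other 4 were below: AT5G05600 was at 655 CPM against 481 CPM in controls, UCP5 at 73.7 against 442 CPM, AT3G52470 at 91.8 against 348 CPM, ABR1 at 61.5 against 119 CPM and GSTU7 at 24.3 against 48.2 CPM.

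Genes that work with or around these repressors were taken from 6 lists of 69 genes, of which 48 could be tested. At 100 µM against the controls 14 of the 48 rose and 5 fell, where 18.1% of all genes were called higher and 14.6% lower; the counts of the single lists stand against the same shares. At 10 µM only ERF105 was called, and at 0.1 and 1 µM none. Among 15 co-repressors and partner proteins 4 rose and 3 fell, with a median log2 change of 0.03 beside -0.02 over all genes. FPA, an RNA-binding protein that controls poly(A) site choice, is known to act on the ERF4 transcript. It fell to 2.55 ± 1.37 CPM at 100 µM, against 10.7 ± 4.38 CPM in controls (log2 change -1.90 ± 0.42, edgeR adjusted p = 0.00192). Its 100 µM libraries were at 0.982 to 3.44 CPM, and 0.982 CPM is 1 count in 100 µM replicate 2. CIPK15, the kinase that phosphorylates ERF7, rose to 408 ± 41.7 CPM at 100 µM, against 229 ± 6.31 CPM in controls (0.83 ± 0.18, edgeR adjusted p = 0.00141). In the TOPLESS family TPR2 rose by 1.01 ± 0.31 on the log2 scale (edgeR adjusted p = 0.0181). TPR3 fell to 18.5 ± 7.7 CPM at 100 µM, against 37.2 ± 2.78 CPM in controls (edgeR adjusted p = 0.0115). TPL, at -0.33 ± 0.19, did not pass (edgeR adjusted p = 0.212), though it was called lower at 100 µM against 10 µM and against the mean of the lower doses. TPR1 (62.8 CPM at 100 µM, 61.3 CPM in controls) and TPR4 (31.6 and 36.7 CPM) were not called against the controls. Of the histone deacetylases HDA6 was lower, with -0.64 ± 0.21 (edgeR adjusted p = 0.0245), while HDA19 was at 117 ± 27.1 CPM at 100 µM and 115 ± 11.3 CPM in controls. The stress-activated kinase MPK3 rose to 12.2 ± 5.4 CPM at 100 µM, against 3.47 ± 2.14 CPM in controls, and MPK6 rose by 0.46 ± 0.17 on the log2 scale (SD and SE, n = 3 each).

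**Figure D5:**
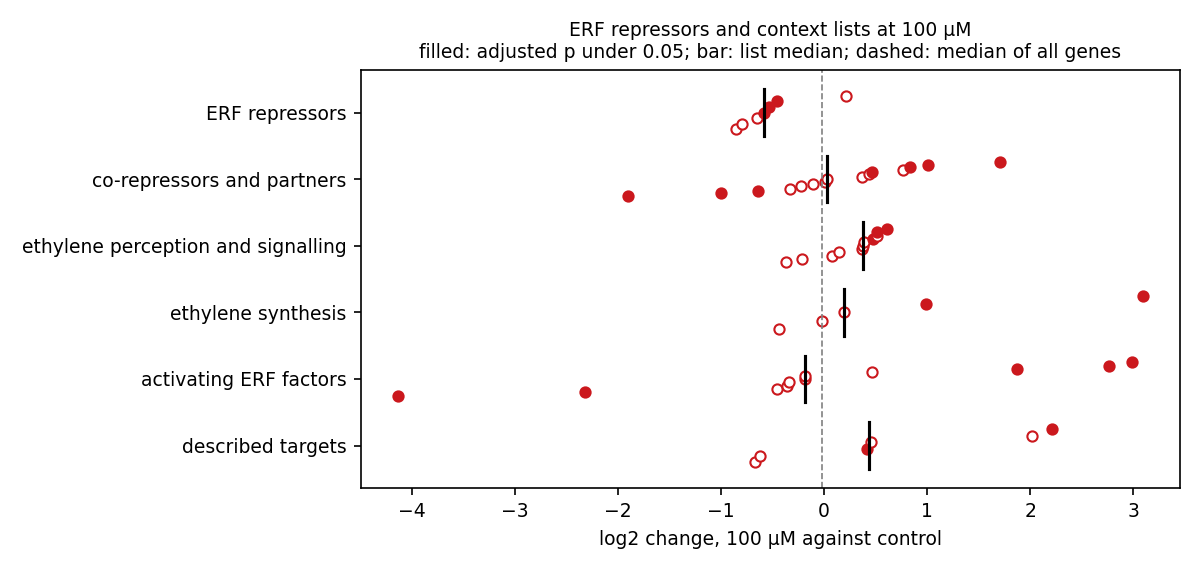
Log2 change at 100 µM against the controls (x axis) for the 7 repressors and the tested genes of 5 lists (rows, one point per gene); filled points passed an adjusted p of 0.05, bars mark each list's median and the dashed line the median of all genes. The repressors have a median of -0.58, and the genes listed as activating ERF factors spread from -4.13 for ERF13 to 2.99 for ERF1.

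Among ethylene synthesis and perception genes the calls at 100 µM were all higher. Of 13 synthesis genes 5 could be tested, 2 rose and none fell. The ACC oxidase gene ACO5 rose to 121 ± 13.5 CPM at 100 µM, against 61.4 ± 16.8 CPM in controls (log2 change 0.99 ± 0.20, edgeR adjusted p = 0.000995). ACS2, a known target of ERF11, was at 4.23 ± 1.48 CPM at 100 µM and 4.68 ± 2.11 CPM in controls, with a 95% interval of the log2 change of -1.20 to 1.16; ACS5 was not tested. Of 13 perception and signalling genes 11 were tested and 3 rose: the kinase CTR1 by 0.61 ± 0.16, the receptor ERS1 by 0.52 ± 0.14 and the F-box gene EBF2 by 0.47 ± 0.16 (log2, SE).

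Log2 changes of the genes listed as activating ERF factors ran from -4.13 to 2.99 at 100 µM, and those of the repressors from -0.86 to 0.21. Of 13 listed 11 were tested, 3 rose and 2 fell at 100 µM, with a median of -0.19. ERF1, an activator of ethylene and jasmonate defence genes, rose to 30.1 ± 8.03 CPM at 100 µM, against 3.73 ± 1.3 CPM in controls, and ORA59, another such activator, to 54.4 ± 16 CPM at 100 µM, against 14.6 ± 4.27 CPM in controls. AT5G61590 rose by 2.77 ± 0.29 on the log2 scale. Whether it acts as an activator was not checked here, and it counts among the 3 by its place in the list alone. ERF13 fell to 2.53 ± 1.22 CPM at 100 µM, against 40.3 ± 6.62 CPM in controls, and ERF105 to 8.31 ± 2.14 CPM, against 43.9 ± 8.21 CPM in controls. ERF105 and ERF13 were also the 2 listed genes called at 10 against 1 µM, the comparison in which ERF4 rose. ERF105 was at 133 ± 33.5 CPM at 10 µM, against 23.8 ± 3.76 CPM at 1 µM (log2 change 2.45 ± 0.23), and ERF13 at 59.2 ± 23.1 CPM at 10 µM, against 14.7 ± 4.8 CPM at 1 µM (1.95 ± 0.30). Against the controls ERF105 rose at 10 µM by 1.60 ± 0.21 (edgeR adjusted p = 0.00635), where ERF4 did not pass. It was the 1 gene of 10374 called there. The call was lost with the digit term, only the compared groups or thinned counts, and without control replicate 2 or 10 µM replicate 3. In each of these 0 genes were called. With the digit term 1 gene was called at 10 against 1 µM, so ERF105 and ERF13 did not both pass.

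Of 9 genes described elsewhere as targets of these repressors 6 were tested, 2 rose and none fell, a share near the 32.7% of all genes called. BT4, a BTB/TAZ scaffold gene described as bound by ERF11, rose to 20.4 ± 0.293 CPM at 100 µM, against 4.41 ± 1.1 CPM in controls (log2 change 2.21 ± 0.40, edgeR adjusted p = 0.000426). Binding does not give the direction of an effect, and ERF11 was not called at 100 µM (edgeR adjusted p = 0.126). CAT3, a catalase gene described as repressed by ERF4, rose to 6128 ± 836 CPM at 100 µM, against 4587 ± 89.7 CPM in controls (0.42 ± 0.14, edgeR adjusted p = 0.0283). CAT3 was at 4154 ± 565 CPM at 10 µM, where ERF4 was highest, and at 3837 ± 555 CPM at 1 µM. The defensin PDF1.2a was at 22.1 ± 20 CPM at 100 µM and 5.02 ± 1.96 CPM in controls, with a log2 change of 2.02 ± 0.82 that did not pass (edgeR adjusted p = 0.0688), and the epithiospecifier gene ESP was at 13.9 ± 1.56 CPM at 100 µM and 21.8 ± 6.98 CPM in controls (-0.67 ± 0.28, edgeR adjusted p = 0.0717). Of 6 other genes of the same ERF group, 3 were in the table and none had enough counts to be tested against the controls; LEP alone entered the test of dose, without passing (slope -0.08 ± 0.22 log2 units per 10-fold dose, edgeR adjusted p = 0.837).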

How the data were processed

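The tools named in the submitters' processing notes are bcl2fastq 2.17.1.14, cutadapt 1.8.3, STAR, HTSeq and DESeq2, without a role or order. Genome build, annotation and use of strand: not given in the sources used here. The deposited table holds raw counts per gene. Its name says that no filter on unique molecular identifiers was used, so amplification copies may be included. The deposited normalized values, a signal scale, and the deposited regularised values, on a log2 scale, and the authors' deposited DESeq2 log2 fold changes and p-values were not used. The table held 0 per-sample columns without a labelled sample. Groups follow the labels, whose correctness was not checked.

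The raw counts were tested with edgeR 4.0.16 in R 4.3.3: TMM factors, filterByExpr by group, which left 10374 genes, and the quasi-likelihood test with a group term over all 15 libraries, adjusted over all genes tested. CPM were scaled to the TMM-adjusted totals. The trend was a slope on log10 dose in the 12 treated libraries, with 10666 genes. Likeness used log2 CPM with a prior count of 2. Alternatives used DESeq2 1.42.0, limma 3.58.1 (voom), other scaling factors, no filter, fewer libraries, thinned counts, a replicate block and the digit of the sample code. The fits were tested on simulated data. Levels were not compared between genes. Symbols and sequences came from RefSeq TAIR10.1, which also gave the gene positions used for promoter windows, overlapping genes and neighbours. No member had a near-identical copy (blastn 2.17.0, 90% identity over 75 bases of the last 500 transcript bases) or an overlapping gene there.

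The members and lists were chosen with earlier results of these data known. The named genes were the 7 members, the 5 genes most like ERF4, ACS2 and ACS5, and from each list up to 3 genes per direction called at 100 µM, plus those called at another dose; the other listed genes were chosen after their values were seen. 1 gene that this rule names is not reported here. Intervals cover the spread between libraries only.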

Additional observations from a re-analysis of the deposited data

How the results depend on the processing

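No called result changed direction under any alternative. The counts of members called at 0.1 and 10 µM against the controls (0 each), in the dose trend (0) and of listed genes called at 100 µM (19) stayed within 1.5 times throughout. At 1 µM DESeq2 called 1 member, ERF4, and 0.864% of all genes. At 100 µM against the controls 3 members became 1 with only the groups compared in the fit, where 24.9% of genes were called. They became 1 to 6 when single libraries were left out, lowest without 100 µM replicate 3 and highest without 100 µM replicate 1. Against the mean of the lower doses 3 became 1 with thinned counts and 1 to 5 when single libraries were left out. The joint test gave 1, and 1 to 2 when single libraries were left out (2 without 100 µM replicate 1). Between doses 5 of 42 became 2 with RLE factors, 2 with upper quartile factors, 3 with DESeq2, 9 with limma-voom, 10 without a filter, 2 with only the groups compared, 2 with thinned counts and 2 to 14 when single libraries were left out. At 100 against 0.1, 1 and 10 µM limma-voom called 36.9%, 29.9% and 39.7% of all genes. With RLE factors the shares were 35.2%, 29.9% and 38.1%, and with upper quartile factors 35.2%, 29.7% and 38%. DESeq2 called 35%, 29.7% and 37.5%, and the fits with only the groups compared called 30.2%, 23.9% and 31.4%. Without a filter the shares were 32.4%, 25.3% and 35.3%, and with thinned counts 28.8%, 26.4% and 32.3%.

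Between same-numbered libraries of different groups the correlation of deviations was -0.137 to 0.268, median 0.01, with 6 of 30 pairs over 0.1. Between differently numbered ones it was -0.268 to 0.204, median -0.02, with 7 of 60 pairs over 0.1. Whether equal numbers mark a shared batch is not given and was not settled by these values. With a replicate block 3 members were called at 100 µM against the controls, and ERF8 passed against the lower doses (adjusted p = 0.0368) and against 10 µM (0.0405). The digit term could not be fitted for 100 µM, where it coincides with dose. ERF12 dropped out under some filters. ERF11 and ERF12 had the fewest counts, 11 to 80 and 1 to 45 per library, and the widest 95% intervals at 100 µM; the parts of counting error and of spread between libraries were not separated.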

Other observations

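Over the 12 libraries other than 100 µM, pairs of repressors had Pearson r of log2 CPM between -0.62 and 0.67. These are given as a description, since the libraries share preparation and the low genes have few counts. ERF4 and ERF3 were at 0.28, ERF7 and ERF12 at 0.67. The lowest value, -0.62, was that of ERF11 and ERF12, which are next to each other on chromosome 1.

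Short promoter motifs were counted on both strands from 250 bases before to 50 bases after the RefSeq TAIR10.1 gene start, as a description. The W-box core TTGAC was present in 5 of 7 repressors, with 3 matches in ERF4, and in 50.5% of 27443 coding genes. The G-box CACGTG was present in 2 of 7, ERF4 and ERF12, and in 7.7% of genes. The GCC box core GCCGCC was present in ERF11 alone and in 2.6% of genes, GCCGAC in ERF9 alone and in 3.3%, TGACG in ERF12 alone and in 23.1%, and CGCGTT in none of the 7 and in 3.4%. ERF7 and ERF8 held none of the 6 motifs in this window.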
